A study of Arabidopsis thaliana with 21 samples.

Results

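The transcriptome of 30-day-old Arabidopsis thaliana plants carrying both the ada2b-c and the spc mutation was set against that of Col-0 wild type. The comparison covered every gene whose mean value over the 21 libraries of the deposited expression table reached 1, which left 23290 of 32548 genes. The series holds 7 genotypes with 3 RNA-seq libraries each, and its title speaks of conserved and plant-specific complexes that contain the acetyltransferase GCN5. The gcn5, ada2a and ada2b-cada2a libraries entered the estimate of spread, and their values are given for some genes. The genotypes compared here were the double mutant, labelled ada2b-c-/-spc-/-, the single mutants ada2b-c-/- and spc-/-, and Col-0, labelled wild type. All were grown for 12 days on plates of MS medium and then in soil up to day 30, under 16 h of light and 8 h of darkness at 22 °C. RNA was taken with TRIzol from material labelled seedlings and sequenced on a NovaSeq instrument as paired reads of 150 bases. What type of allele each line carries is not given, nor is it said that the 3 libraries per genotype were made from different plants. The p-values below therefore measure only the spread between libraries.

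Histone acetyltransferases of the GCN5 type add acetyl groups to histone H3 at the promoters of active genes, and they work inside large multisubunit complexes. ADA2 proteins are the adaptors that hold GCN5 in such a complex: ADA2B is the adaptor of the plant SAGA complex, while SPC is known as a subunit of a plant-specific GCN5 complex that holds ADA2A. In Arabidopsis, loss of GCN5 or ADA2B is known to cause dwarf growth, altered light and cold responses and defects in flowers.

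The values are the submitters' adjusted read signal per gene, not raw counts. Column totals were 28362676 to 28877645 in the double mutant and 39255132 to 40402903 in Col-0. The 10 highest genes took 4.2% to 4.6% of the signal in the double mutant and 12.3% to 13% in Col-0. Change was also tied to transcript length. The values of a library moved with each doubling of transcript length by 0.83, 0.80 and 0.95 on the log2 scale in the double mutant libraries and by -0.22, -0.34 and -0.63 in the Col-0 libraries, relative to the mean over all 21. The median annotated transcript was 2276 bases among genes higher in the double mutant and 1333 bases among genes lower in it, so genotype and this trend cannot be told apart. List counts against Col-0 are therefore also given after every library's trend with length and GC content was removed, which is called the corrected value. A gene's corrected change against Col-0 stands beside its change as deposited where the correction moved it by over 1.5 times. Setting all column totals equal moved the median change over all genes to 0.37, against -0.06 for the values as deposited. The strand setting of the counting is not given in the sources used here, so reads of overlapping genes cannot be told apart; among genes named below this touches ADA2A, ADA2B, ARR9, ASN1, AT4G38780, AT5G38396, BCAT2, BCAT4, CBF3, CHLI2, CHS, CO, CRD1, CYP71A13, EDS5, ELF3, GAT1_2.1, GLR2.5, HSP101, JUB1, LHCB2.3, LHCB3, MAX4, MCCA, PSAN, RCCR, RLP23, SPL9, STK, TKPR1 and WRKY53. Families of near-identical copies (LHCB1 and LHCB2, RBCS, AOC, LTP, CBF and the histones) carry the same uncertainty.

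Most genes differed between the double mutant and Col-0. Limma called 15051 of 23290 genes at an adjusted p under 0.05, which is 64.6%, with 7307 higher (31.4%) and 7744 lower (33.3%) in the double mutant. With equal column totals 9136 genes were higher (39.2%) and 5329 lower (22.9%), so the share of calls that were higher was 63.2% against 48.5% as deposited. After the correction 14211 genes were called (61.0%), 7626 higher (32.7%) and 6585 lower (28.3%), and 10234 of them had been called in the same direction as deposited, while 667 had been called in the opposite one. A fit that took each library's length slope as a covariate called 9959 genes (42.8%). The same direction was called in all 3 fits for 5395 genes, 2081 higher and 3314 lower. Changes of at least 4-fold numbered 3329 higher and 2780 lower.

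**Figure D1:**
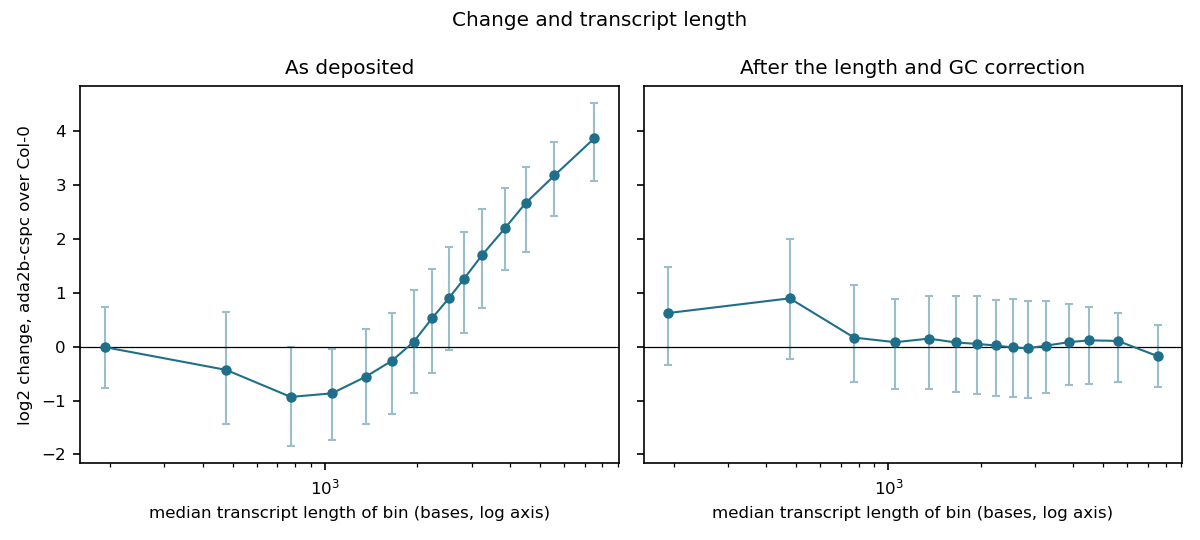
Median log2 change of ada2b-cspc over Col-0 (vertical axis) in bins of annotated transcript length (horizontal log axis, bases), for the values as deposited and after the length and GC correction; each point is 1 bin of at least 20 genes and the bars span the quartiles. The deposited medians lie lowest, at -0.93, in the bin centred on 773 bases and reach 3.87 in the longest bin; the corrected medians lie between -0.17 and 0.90, with the highest of them in the 2 shortest bins.

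The genes that rose most were at or near 0 in Col-0. DIN2, a glycosyl hydrolase gene named for its induction by darkness, had values of 2048, 2245 and 2008 in the double mutant and was listed at 0 in all 3 Col-0 libraries. PGAZAT, which encodes a polygalacturonase of the kind that loosens cell walls during abscission, had 369, 344 and 359.7 and was also listed at 0 in Col-0. DOX1, an alpha-dioxygenase gene of oxylipin metabolism, had 1970.1, 1959.8 and 2068 in the double mutant, against 15.8, 2.5 and 2.35 in Col-0 (log2 change 8.43 ± 0.43 (SE), adjusted p = 4.13e-12). No library of one genotype overlapped the other for these genes. The other genes among the 10 largest rises were AT1G74140, AT5G16900 and GAT1_2.1, listed at 0 in Col-0, and UGT76B1, RLP7, CHX17 and GLR2.5. RLP7 encodes a receptor-like protein (log2 change 8.51 ± 0.67 (SE), adjusted p = 1.71e-09). CHX17 encodes a cation/proton exchanger (log2 change 8.24 ± 0.44 (SE), adjusted p = 6.85e-12). GLR2.5 encodes a glutamate receptor-like channel (log2 change 8.07 ± 0.46 (SE), adjusted p = 1.44e-11).

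The largest falls included genes of surface wax, light signalling and cold tolerance. MAH1, the midchain alkane hydroxylase of stem wax synthesis, had 0, 2.96 and 3.2 in the double mutant, against 3541, 3121 and 3542 in Col-0 (log2 change -10.38 ± 0.41 (SE), adjusted p = 1.28e-13). BBX16, a B-box zinc finger gene of light signalling, had 1.60, 0 and 1.59 in the double mutant, against 2042, 1935 and 2034 in Col-0 (log2 change -10.05 ± 0.51 (SE), adjusted p = 3.55e-12). CIPK20, a CBL-interacting kinase gene, had 0.493, 9.01 and 5.42 in the double mutant, against 2676, 1871 and 1939.7 in Col-0 (log2 change -8.87 ± 0.53 (SE), adjusted p = 3.71e-11). Every double mutant library lay far below every Col-0 library for these 3 genes. The rest of the 10 largest falls were LTP4 and GOLS3, described below, the uncharacterized AT3G55240, AT2G15020 and AT4G19430, the dehydrogenase gene AT5G37940, and GRP19. AT2G15020 was listed at 0 in every double mutant library, against 771, 659.6 and 603 in Col-0. GRP19, a glycine-rich protein gene of the pollen coat cluster, was listed at 0 in the double mutant, against 299, 293 and 426 in Col-0.

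**Figure D2:**
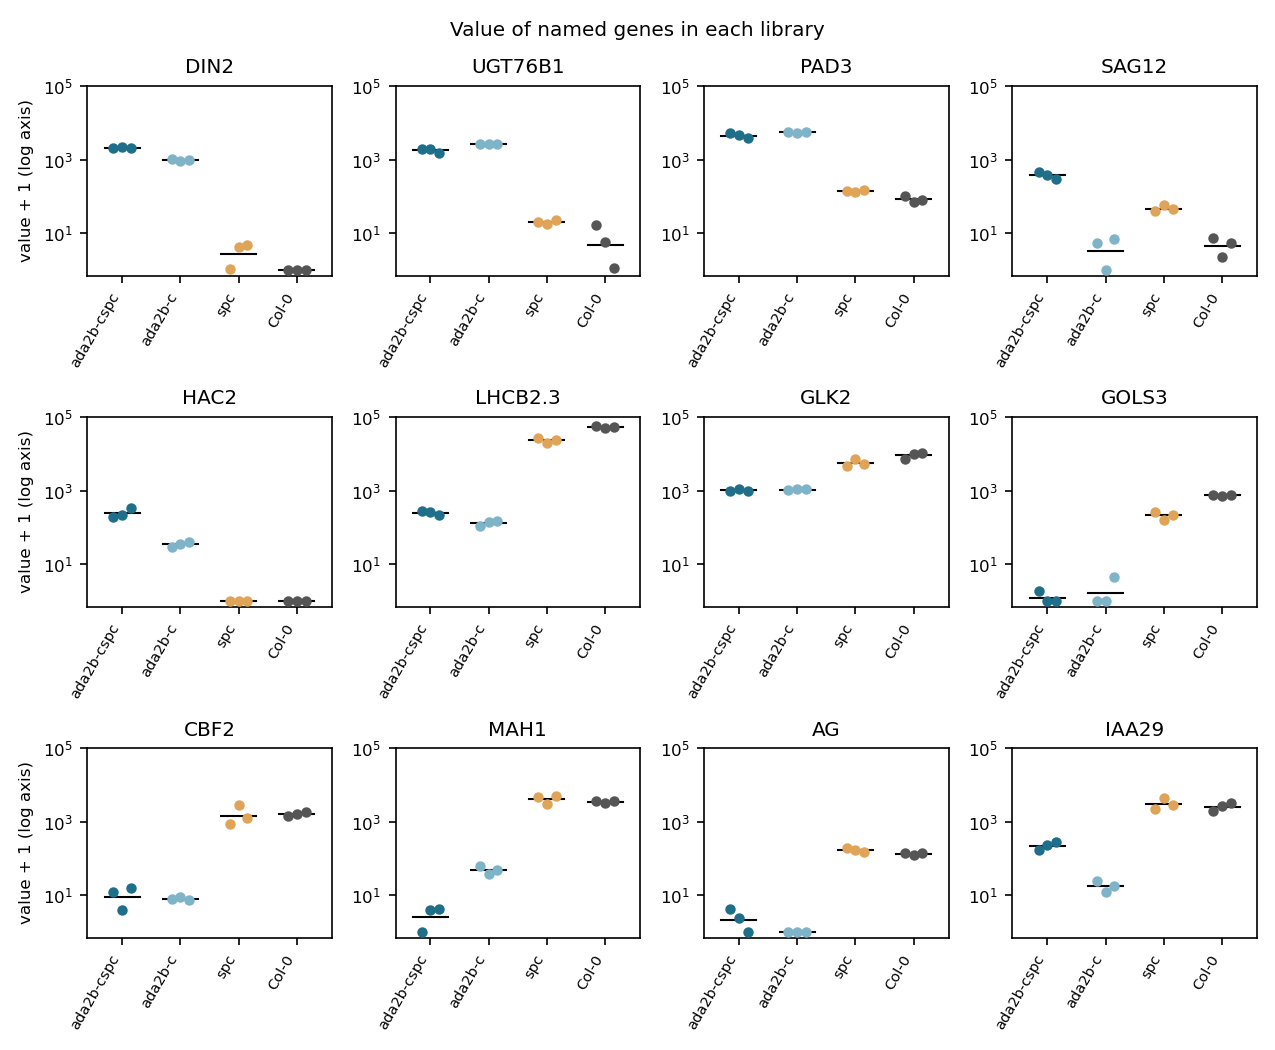
Deposited value plus 1 (vertical log axis) in each library of ada2b-cspc, ada2b-c, spc and Col-0 for 12 named genes; each point is 1 library and each bar the mean on the log scale. The double mutant points sit above the Col-0 points for DIN2, UGT76B1, PAD3, SAG12 and HAC2, and below them for the other 7 genes.

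Among the genes of the GCN5 machinery, GCN5 itself had 535, 507 and 643 in the double mutant, against 429, 332 and 353 in Col-0 (log2 change 0.60 ± 0.21 (SE), adjusted p = 0.0171). With equal column totals the change was larger (1.08, adjusted p = 0.00198). The corrected change was -0.05 (adjusted p = 0.837) and that with the length slope as a covariate 0.16 (adjusted p = 0.73), and each of these ended the call. Leaving out Col-0 library 2 (0.52, adjusted p = 0.0667) or double mutant library 3 (0.49, adjusted p = 0.0789) also ended it. ADA2A, the second ADA2 gene, had 571, 505 and 662 in the double mutant, against 77.9, 80.5 and 42.3 in Col-0 (log2 change 3.14 ± 0.48 (SE), adjusted p = 9.46e-06), and its corrected change was 2.88 (adjusted p = 2.21e-05). ADA2B transcripts had 361, 391 and 480.4 in the double mutant, 615, 567 and 568 in ada2b-c and 737, 403 and 341 in Col-0, with no called difference from Col-0 (log2 change -0.19 ± 0.39 (SE), adjusted p = 0.684; corrected -0.55, adjusted p = 0.0903). With the length slope as a covariate it was lower (-2.5, adjusted p = 2.11e-05). Since the position of the ada2b-c mutation is not given, the level neither checks nor contradicts the label. GCN5 averaged 562 ± 72.1 in ada2b-cspc, 528 ± 95.4 in ada2b-cada2a, 745 ± 83.6 in ada2b-c, 285 ± 34.9 in spc, 331 ± 95.8 in ada2a, 275 ± 14.9 in gcn5 and 372 ± 51.0 in Col-0 (SD, n = 3 each). ADA2A averaged 579 ± 78.7 in ada2b-cspc, 3.48 ± 3.36 in ada2b-cada2a, 816 ± 34.2 in ada2b-c, 43.1 ± 8.59 in spc, 31.9 ± 22.1 in ada2a, 133 ± 63.5 in gcn5 and 66.9 ± 21.3 in Col-0 (SD, n = 3 each). ADA2B averaged 411 ± 62.4 in ada2b-cspc, 323 ± 55.7 in ada2b-cada2a, 583 ± 27.4 in ada2b-c, 127 ± 73.8 in spc, 215 ± 51.9 in ada2a, 540.1 ± 274 in gcn5 and 494 ± 213 in Col-0 (SD, n = 3 each). The transcript of SPC was not checked, because the annotation used here gives no gene that name. Of 20 genes for GCN5 complex subunits, 13 were higher and 4 lower; after the correction 12 were higher and 0 lower. SPT20, a scaffold subunit of SAGA, had 2004, 1629 and 2016 in the double mutant, against 79.0, 123 and 37.97 in Col-0 (log2 change 4.69 ± 0.56 (SE), adjusted p = 4.93e-07; corrected 1.93). The very long genes AT2G17930 and AT4G36080, homologues of the TRRAP subunit, changed by 4.93 ± 0.44 and 4.73 ± 0.50 as deposited and by 0.04 and -0.17 after the correction, where neither was called. AT4G29790, named by its locus, changed by 3.37 ± 0.31 (corrected 0.65). SGF29A and AT3G27100 were lower as deposited, by -1.04 ± 0.22 and -1.02 ± 0.31 (corrected 0.085 and 0.13), and neither was called after the correction or with equal column totals.

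Counts for genes of other chromatin functions depended on the correction. Of 11 genes for other histone acetyltransferases, 9 were higher and 1 lower (corrected 7 and 1). HAC2, a gene of the CBP-type acetyltransferase family, had 191, 220.4 and 336 in the double mutant and 28.9, 34.2 and 39.4 in ada2b-c, and was listed at 0 in all Col-0 libraries. HAC1, of the same family, had 5304, 4421 and 6958 in the double mutant, against 225, 243 and 156 in Col-0 (log2 change 4.73 ± 0.50 (SE), adjusted p = 9.25e-08; corrected 1.28). HAF2, a TAF1-type gene, had 1.44, 2.87 and 3.13 in the double mutant, against 17.1, 21.9 and 24.3 in Col-0 (log2 change -2.69 ± 0.68 (SE), adjusted p = 0.00184; corrected -5.89). Histone deacetylase genes were higher in 8 and lower in 2 of 13 (corrected 7 and 0), and HDA5 changed by 1.82 ± 0.20 (corrected 0.76). Of 20 genes of small RNA pathways, 17 were higher and 0 lower as deposited, but 4 and 4 after the correction. The DNA methylation genes counted 13 higher and 1 lower of 14 as deposited, and 5 and 3 after it. The demethylase genes DME and ROS1 stayed called in all 3 fits, with changes of 4.90 ± 0.39 and 3.70 ± 0.34 as deposited and 1.19 and 0.85 corrected. Core histone genes, which are short, were lower in 16 of 21 and higher in 0 (corrected 9 lower and 2 higher). The H2A gene HTA2 had 738, 867 and 746 in the double mutant, against 2638, 2717 and 3210.0 in Col-0 (log2 change -1.86 ± 0.26 (SE), adjusted p = 3.3e-06; corrected -1.19). With the length slope as a covariate, HTA2 (-0.39, adjusted p = 0.219) and HAF2 (-0.69, adjusted p = 0.674) were not called.

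Genes of the photosynthetic light-harvesting antenna, the chlorophyll-binding proteins that feed both photosystems, were lower in the double mutant without exception among those tested. All 17 fell, before and after the correction, with a median change of -3.51 (corrected -3.10), beside a median of -0.06 over all genes. The summed antenna signal was 658178, 636959 and 552489 in the double mutant libraries, against 5672223, 5992051 and 5483224 in the Col-0 libraries. LHCB2.3 had 269, 253 and 214 in the double mutant, against 57764, 51680.5 and 52735 in Col-0 (log2 change -7.78 ± 0.16 (SE), adjusted p = 5.42e-18). LHCB2.1 had 2542, 2536 and 2128 in the double mutant, against 246974, 240681 and 193318 in Col-0 (log2 change -6.56 ± 0.15 (SE), adjusted p = 3.46e-17). LHCB1.1 and LHCB3, of the same photosystem II antenna, changed by -4.98 ± 0.20 and -4.96 ± 0.18, and the libraries split by genotype in each of these genes. In material of mixed cells, fewer cells that carry such transcripts and less RNA per cell cannot be told apart. The 250 bases before the annotated start of LHCB2.3 are shown because it changed most (RefSeq TAIR10.1, plus strand, chr3:10255656-10255905); capitals mark a G-box, CACGTG, the element that light-regulated promoters are known for.
LHCB2.3: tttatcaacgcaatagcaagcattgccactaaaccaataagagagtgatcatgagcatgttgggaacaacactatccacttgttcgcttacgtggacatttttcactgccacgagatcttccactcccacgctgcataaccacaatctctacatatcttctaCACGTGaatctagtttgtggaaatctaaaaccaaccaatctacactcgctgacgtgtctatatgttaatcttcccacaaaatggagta
The G-box, which is its own reverse complement, lay within 250 bases before to 50 after the start in 4 of 17 antenna genes, or 23.5%, against 8.5% of all 22101 such windows. The I-box GATAAG, searched on both strands, was held by 6 of them (35.3%, against 14.7% of all windows). A match is a description of the letters and not a binding site.

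The other chloroplast lists fell too. Photosystem and electron transport subunit genes were lower in 16 of 17 and higher in 0, with the same counts after the correction. PSAN, a photosystem I subunit gene, had 10759, 10994 and 8640.5 in the double mutant, against 127218, 166058 and 154034 in Col-0 (log2 change -3.88 ± 0.28 (SE), adjusted p = 4.67e-10). PSAO, PSAK and PSAL changed by -3.55 ± 0.17, -3.43 ± 0.22 and -3.24 ± 0.27. Calvin cycle and Rubisco genes were lower in 13 of 16 and higher in 1 (corrected 14 lower, 1 higher). The Rubisco small subunit gene RBCS3B had 20319, 16706 and 18618 in the double mutant, against 97011, 115781 and 63969 in Col-0 (log2 change -2.28 ± 0.29 (SE), adjusted p = 1.36e-06). FBA1, a chloroplast aldolase gene, changed by -2.91 ± 0.19, while the transketolase gene TKL1 was higher as deposited, by 1.35 ± 0.32, with a corrected change of -0.40. Chlorophyll synthesis genes were lower in 10 of 15 and higher in 0 (corrected 12 and 0). PORA, a protochlorophyllide oxidoreductase gene, had 23.9, 6.60 and 12.2 in the double mutant, against 1956, 1537 and 1249 in Col-0 (log2 change -6.84 ± 0.73 (SE), adjusted p = 1.11e-07). CRD1, DVR and CHLI2 changed by -2.28 ± 0.27, -2.24 ± 0.28 and -2.12 ± 0.21.

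Among regulators of greening and light signalling, 6 of 20 were higher and 11 lower (corrected 4 and 10). GLK2, a transcription factor that activates antenna and chlorophyll genes, had 985, 1085 and 998 in the double mutant, against 7157, 9839.8 and 10479 in Col-0 (log2 change -3.14 ± 0.22 (SE), adjusted p = 3.81e-10). GNC, a GATA factor of chloroplast development, had 192, 208 and 261 in the double mutant, against 1057, 1605 and 1521 in Col-0 (log2 change -2.65 ± 0.24 (SE), adjusted p = 1.31e-08). HYH, the relative of the light regulator HY5, changed by -3.02 ± 0.40 (corrected -1.62). GLK2, GNC and HYH were each lower in every double mutant library than in any Col-0 library. PHYA, the far-red light receptor gene, and PIF3, a repressor of greening in the dark, were higher, by 3.06 ± 0.32 and 2.37 ± 0.23 (corrected 0.34 and 1.13). Clock genes split: 7 of 15 were higher and 5 lower as deposited, and 5 and 9 after the correction, but 9 and 4 with equal column totals. PRR9, which peaks in the morning, had 7.44, 22.8 and 9.81 in the double mutant, against 1034, 849 and 973 in Col-0 (log2 change -6.20 ± 0.51 (SE), adjusted p = 2.94e-09). CCA1, another morning gene, had 47.7, 24.4 and 45.7 in the double mutant, against 499.7, 545 and 361 in Col-0 (log2 change -3.58 ± 0.55 (SE), adjusted p = 1.01e-05). TOC1, an evening gene, had 9640.0, 9851 and 11215 in the double mutant, against 1381, 2026 and 1779 in Col-0 (log2 change 2.58 ± 0.21 (SE), adjusted p = 2.26e-09; corrected 1.16), and ELF3 and PRR5 changed by 2.91 ± 0.40 and 1.51 ± 0.35 (corrected 1.55 and 1.58). GI was higher as deposited by 1.47 ± 0.41, but its corrected change was -1.07. With the length slope as a covariate, neither ELF3 (0.67, adjusted p = 0.203) nor PRR5 (-0.49, adjusted p = 0.284) was called. The hour of harvest is not given, so its part in the clock values was not tested.

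Genes that plants switch on when sugar runs short were high in the double mutant. Of 14 sugar starvation genes, 12 were higher and 0 lower (corrected 12 and 1), led by DIN2. ASN1, the dark-inducible asparagine synthetase gene, had 24716, 27079 and 22424 in the double mutant, against 1498, 1523 and 1182 in Col-0 (log2 change 4.15 ± 0.20 (SE), adjusted p = 1.86e-12). BCAT2, which starts the breakdown of branched-chain amino acids, had 6858, 7156 and 7396 in the double mutant, against 314, 283 and 337 in Col-0 (log2 change 4.52 ± 0.18 (SE), adjusted p = 1.62e-13). MCCA, of leucine breakdown, changed by 4.58 ± 0.41. No library of either genotype crossed into the other's range in these genes. Starch genes were mixed as deposited, with 5 of 20 higher and 6 lower, while after the correction 2 were higher and 13 lower and with equal column totals 8 and 2, so the direction of the list depends on the scaling. GBSS1, the granule-bound starch synthase gene, had 267, 248 and 244 in the double mutant, against 1185, 976 and 877 in Col-0 (log2 change -1.99 ± 0.24 (SE), adjusted p = 4.95e-07). APL3, an ADP-glucose pyrophosphorylase subunit gene, changed by -1.73 ± 0.32. The long genes PWD and GWD1, whose products phosphorylate starch for breakdown, changed by 2.87 ± 0.44 and 2.76 ± 0.41 as deposited and by 0.57 and -0.20 corrected, and with the length slope as a covariate neither was called (0.10, adjusted p = 0.849, and 0.60, adjusted p = 0.345).

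Senescence genes were higher in 8 of 15 and lower in 4 (corrected 11 and 4). SAG12, a cysteine protease gene used as the marker of developmental leaf senescence, had 457, 383 and 291 in the double mutant, against 6.35, 1.29 and 4.42 in Col-0 (log2 change 6.37 ± 0.56 (SE), adjusted p = 7.74e-09). SAG13 had 2127, 2161 and 2268 in the double mutant, against 231, 232 and 399.6 in Col-0 (log2 change 2.97 ± 0.18 (SE), adjusted p = 4.77e-11). JUB1 and WRKY6, transcription factor genes of this list, changed by 3.39 ± 0.36 and 2.01 ± 0.20 (corrected 4.51 and 1.17). Against this direction, SWEET15, a sugar exporter gene of senescing leaves, and RCCR, a chlorophyll catabolite reductase gene, were lower, by -1.71 ± 0.41 and -1.91 ± 0.14 (corrected -1.09 and -0.996). The list thus split by gene, with SAG12 far above and SWEET15 below the Col-0 range; SWEET15 was not called with the length slope as a covariate (-0.73, adjusted p = 0.435).

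Salicylic acid defence genes were mostly higher in the double mutant. Of 24 genes, 22 were higher and 1 lower, and 21 and 1 after the correction, with a median change of 2.16 (corrected 2.53). UGT76B1, whose enzyme puts glucose on salicylic acid and related immune signals, had 1937, 1912 and 1557 in the double mutant, against 15.8, 4.73 and 0.12 in Col-0 (log2 change 8.56 ± 0.58 (SE), adjusted p = 2.3e-10). PR2, the beta-glucanase gene read as a marker of salicylic acid signalling, had 16478, 15678 and 13482 in the double mutant, against 972, 1078 and 855 in Col-0 (log2 change 3.97 ± 0.22 (SE), adjusted p = 8.84e-12). ALD1, needed to make the systemic signal pipecolic acid, had 492, 431 and 342 in the double mutant, against 70.2, 19.9 and 24.6 in Col-0 (log2 change 3.63 ± 0.47 (SE), adjusted p = 1.44e-06). All 3 genes were higher in each double mutant library than in any Col-0 library. EDS5, the chloroplast transporter of the pathway, changed by 3.56 ± 0.23, and WRKY53 was lower, by -1.12 ± 0.20 (corrected -0.73), a call that equal column totals ended (-0.63, adjusted p = 0.052). The W-box TTGACC or TTGACT, searched on both strands, lay within 250 bases before to 50 after the start in 8 of 24 of these genes (33.3%), close to the 32.7% of all windows. Cell-surface immune receptor genes were higher in 11 and lower in 2 of 14 as deposited, but 6 and 5 after the correction. RLP23, the receptor of a microbial peptide, changed by 3.75 ± 0.42 (corrected 2.29), and the oxidase gene RBOHD by -0.85 ± 0.27 (corrected -2.93; -0.36, adjusted p = 0.372 with equal column totals).

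Of 25 jasmonate genes, 2 were higher and 14 lower (corrected 6 and 14, and 6 and 12 with equal column totals). The share called was close to the 64.6% over all genes, but most of the calls were lower, unlike those of salicylic acid. AOC1, an allene oxide cyclase gene of jasmonate synthesis, had 166, 149 and 177 in the double mutant, against 3135, 3466 and 4154 in Col-0 (log2 change -4.44 ± 0.19 (SE), adjusted p = 4.38e-13). AOS, which encodes the preceding enzyme, had 1458, 1376 and 1086 in the double mutant, against 16366, 18539 and 18911 in Col-0 (log2 change -3.79 ± 0.19 (SE), adjusted p = 3.09e-12). The repressor gene JAZ7 changed by -2.95 ± 0.42 (corrected -1.40), whereas JAZ1 and the synthesis gene OPR3 were higher, by 0.99 ± 0.29 and 0.53 ± 0.16 (corrected 1.82 and 0.70). Synthesis genes were therefore not uniform. With the length slope as a covariate JAZ7, JAZ1 and OPR3 were not called (-0.85, adjusted p = 0.201; -0.16, adjusted p = 0.785; -0.01, adjusted p = 0.988), and without Col-0 library 3 neither was OPR3 (0.40, adjusted p = 0.0506). Ethylene genes counted 8 higher and 5 lower of 16 (corrected 3 and 7), so the direction that prevailed turned with the correction. Within the ACC synthase family, ACS7 had 102, 118 and 101 in the double mutant, against 0.036, 1.24 and 6.46 in Col-0 (log2 change 5.38 ± 0.64 (SE), adjusted p = 4.77e-07). ACS11 had 7.84, 5.55 and 6.94 in the double mutant, against 302, 211 and 292 in Col-0 (log2 change -5.11 ± 0.30 (SE), adjusted p = 2.27e-11), and ACS6 changed by -2.99 ± 0.22. Glucosinolate and camalexin genes counted 4 higher and 11 lower of 21 (corrected 5 and 11). MYB29, a regulator of aliphatic glucosinolates, had 17.3, 8.85 and 17.1 in the double mutant, against 1149, 1163 and 1185 in Col-0 (log2 change -6.30 ± 0.41 (SE), adjusted p = 1.04e-10). PAD3, the last enzyme gene of camalexin synthesis, had 5157, 4569.8 and 3850.4 in the double mutant, against 101, 68.2 and 78.7 in Col-0 (log2 change 5.76 ± 0.26 (SE), adjusted p = 6.62e-13). CYP71A13, an earlier camalexin gene, changed by 4.95 ± 0.27, and MYB34 and BCAT4, of glucosinolate synthesis, by -3.39 ± 0.33 and -3.04 ± 0.17.

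Cold and abscisic acid genes fell nearly throughout, with 17 of 19 lower and 2 higher (corrected 17 and 0) and a median change of -3.07 (corrected -2.33). GOLS3, a cold-induced galactinol synthase gene, had 0.825, 0 and 0 in the double mutant, against 764, 723 and 745 in Col-0 (log2 change -9.25 ± 0.54 (SE), adjusted p = 2.39e-11). CBF2, which encodes a factor that switches on cold genes, had 10.98, 3.06 and 14.2 in the double mutant, against 1435, 1595 and 1809.9 in Col-0 (log2 change -7.47 ± 0.59 (SE), adjusted p = 1.71e-09). Its neighbour CBF3 had 16.5, 9.64 and 15.5 in the double mutant, against 1179, 1146 and 1102 in Col-0 (log2 change -6.30 ± 0.40 (SE), adjusted p = 9.49e-11). Each of these genes stood lower in every double mutant library than in any Col-0 library, at a growth temperature of 22 °C for both. KIN1 and COR15A, genes of cold-protective proteins, changed by -6.39 ± 0.61 and -4.25 ± 0.34. RD29B and the phosphatase gene HAI1 were higher as deposited, by 1.73 ± 0.62 and 0.72 ± 0.28 (corrected 1.13 and 0.44), and neither was called after the correction. Their calls also ended when single libraries were left out: for RD29B Col-0 library 3 (1.11, adjusted p = 0.138) or double mutant libraries 1 (1.58, adjusted p = 0.0611) or 3 (1.65, adjusted p = 0.0535). For HAI1 these were Col-0 libraries 1 (0.60, adjusted p = 0.0994) or 3 (0.65, adjusted p = 0.0855), or double mutant libraries 2 (0.57, adjusted p = 0.122) or 3 (0.74, adjusted p = 0.0518). HAI1 was called with equal column totals (1.205, adjusted p = 0.000298). It was also called with the length slope as a covariate (1.79, adjusted p = 0.00106), where RD29B was not (-0.54, adjusted p = 0.707). CBF factors are known to bind the letters CCGAC. The 250 bases before the start of GOLS3 (RefSeq TAIR10.1, plus strand, chr1:3019389-3019638) and COR15A (minus strand, chr2:17712331-17712580) are shown because each holds 2 copies on either strand, in capitals.
GOLS3: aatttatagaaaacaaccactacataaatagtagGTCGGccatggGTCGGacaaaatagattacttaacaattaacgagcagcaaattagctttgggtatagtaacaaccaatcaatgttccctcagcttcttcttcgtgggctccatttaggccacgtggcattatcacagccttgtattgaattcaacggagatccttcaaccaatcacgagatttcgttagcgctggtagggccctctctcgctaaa
COR15A: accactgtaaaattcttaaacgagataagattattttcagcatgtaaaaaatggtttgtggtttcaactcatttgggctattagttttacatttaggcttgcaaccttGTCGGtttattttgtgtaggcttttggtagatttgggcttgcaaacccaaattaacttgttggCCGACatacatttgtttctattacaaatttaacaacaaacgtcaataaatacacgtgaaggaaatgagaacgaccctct
Searched on both strands from 250 bases before to 50 after the start, CCGAC was found in 5 of 19 genes of the list, or 26.3%, against 15.7% of all windows. RD29B, higher as deposited, was among the holders, while CBF2, CBF3 and KIN1 were not.

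Heat shock genes counted 6 higher and 2 lower of 13 (corrected 7 and 1), a share of calls close to the 64.6% over all genes. HSP101, a disaggregase gene, had 504, 371 and 579 in the double mutant, against 51.1, 39.2 and 25.7 in Col-0 (log2 change 3.64 ± 0.32 (SE), adjusted p = 9.57e-09; corrected 1.82). HSP18.2, a small heat shock protein gene, had 1.44, 3.70 and 2.27 in the double mutant, against 217, 171 and 158 in Col-0 (log2 change -5.76 ± 0.66 (SE), adjusted p = 2.78e-07). HSP90.1 changed by 3.37 ± 0.33. Iron genes counted 5 higher and 9 lower of 18 (corrected 5 and 8), but 7 higher and 6 lower with equal column totals. NAS1, a nicotianamine synthase gene, had 38.6, 25.6 and 15.8 in the double mutant, against 617, 654 and 524 in Col-0 (log2 change -4.52 ± 0.43 (SE), adjusted p = 2.52e-08). IRT1, the iron uptake transporter gene of roots, was listed at 0 in the double mutant, against 20.15, 4.88 and 12.2 in Col-0. ABCG37, an exporter gene, had 224, 148 and 228 in the double mutant and was listed at 0 in Col-0.

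**Figure D3:**
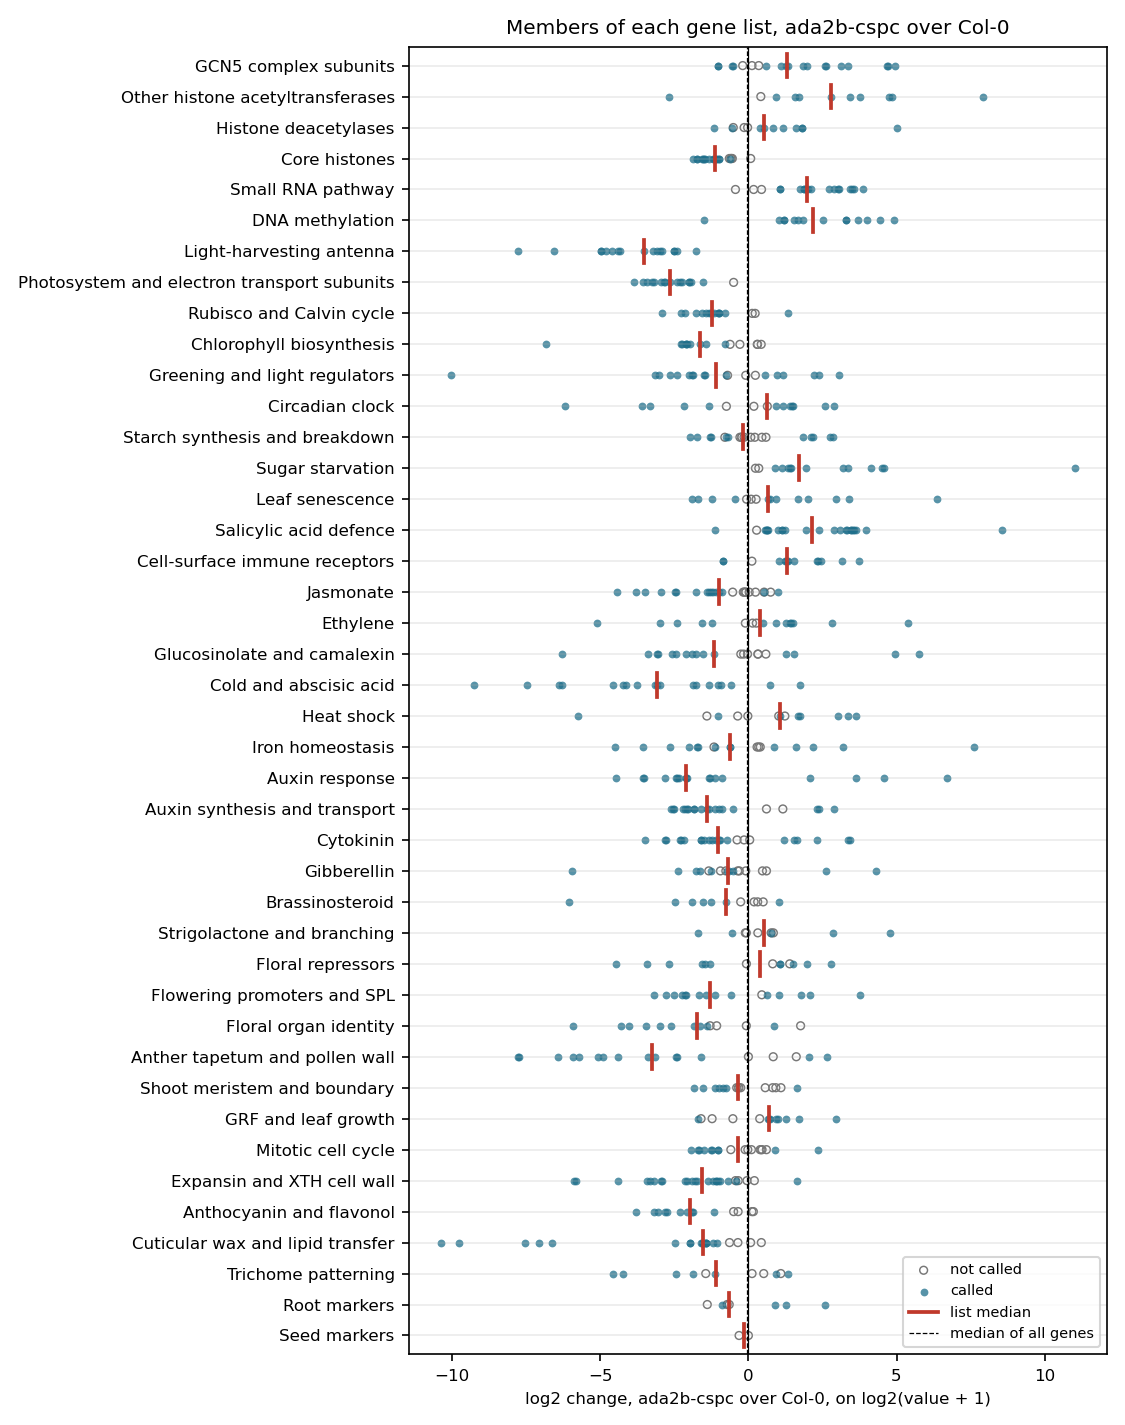
Log2 change of ada2b-cspc over Col-0 (horizontal axis) for each tested member of the 42 gene lists (rows); filled points were called at an adjusted p under 0.05, open points were not, and each vertical tick is the list median. Every antenna point lies left of 0, 22 of 24 salicylic acid defence points are called to the right of it, and the dashed line is the median of all genes, -0.06.

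Auxin response genes were low against Col-0 as deposited. Of 18 genes, 14 were lower and 4 higher, but the corrected counts were 9 and 5. IAA29, an early auxin-induced repressor gene, had 171, 226 and 271 in the double mutant, against 1920.1, 2648 and 3116 in Col-0 (log2 change -3.52 ± 0.31 (SE), adjusted p = 7.62e-09; corrected -2.13). IAA17 changed by -3.56 ± 0.28 (corrected -2.67) and IAA6 by -4.48 ± 0.60 (corrected -3.05). GH3.2 and GH3.3, whose enzymes join auxin to amino acids, were higher. GH3.2 had 934, 766 and 819.8 in the double mutant, against 27.5, 13.9 and 0.184 in Col-0 (log2 change 6.72 ± 0.70 (SE), adjusted p = 8.61e-08). GH3.3 had 1854, 1632 and 1522 in the double mutant, against 80.1, 93.1 and 43.4 in Col-0 (log2 change 4.58 ± 0.43 (SE), adjusted p = 1.98e-08). Auxin synthesis and transport genes were lower in 16 of 21 and higher in 3 (corrected 17 and 2). LAX1, an auxin influx carrier gene, had 524, 512 and 465 in the double mutant, against 2807, 2817 and 3262 in Col-0 (log2 change -2.56 ± 0.17 (SE), adjusted p = 1.69e-10). The synthesis genes TAR2 and YUC8 changed by -2.52 ± 0.23 and -2.60 ± 0.42, while YUC4 was higher, by 2.89 ± 0.64. The direction thus differed between members of the YUCCA family.

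For cytokinin, 15 of 24 genes were lower and 6 higher (corrected 13 and 4). ARR9, a response regulator gene induced by the hormone, had 245, 228 and 277 in the double mutant, against 1358, 1862 and 2107 in Col-0 (log2 change -2.80 ± 0.31 (SE), adjusted p = 1.64e-07; corrected -1.56). CKX4, a cytokinin oxidase gene, changed by -2.78 ± 0.30, and the activating-enzyme gene LOG5 was higher, by 3.36 ± 0.49. Gibberellin genes counted 2 higher and 8 lower of 18, with the same counts after the correction and 2 and 5 with equal column totals, and the share called was below the 64.6% over all genes. GA2OX1, of gibberellin breakdown, had 0, 3.85 and 1.501 in the double mutant, against 142, 142 and 139.6 in Col-0 (log2 change -5.95 ± 0.75 (SE), adjusted p = 9.9e-07). RGA, a DELLA repressor gene, changed by -1.62 ± 0.14 (corrected -2.47), and the receptor gene GID1B was higher, by 2.63 ± 0.19. Brassinosteroid genes were lower in 6 of 11 and higher in 1, again as after the correction. The share called was close to the 64.6% over all genes. As deposited, the higher one was DWF1. The synthesis gene BR6OX1 had 0, 0.766 and 0 in the double mutant, against 63.1, 87.5 and 88.6 in Col-0 (log2 change -6.04 ± 0.68 (SE), adjusted p = 2.2e-07). BR6OX2 and DWF4 changed by -2.47 ± 0.19 and -1.92 ± 0.22. Strigolactone and branching genes counted 3 higher and 2 lower of 10 (corrected 4 and 3), a share called below that over all genes. MAX4, a carotenoid cleavage gene of strigolactone synthesis, had 438, 446 and 436 in the double mutant, against 16.0, 16.1 and 13.3 in Col-0 (log2 change 4.78 ± 0.32 (SE), adjusted p = 1.47e-10).

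Flower genes were mostly lower. Of 14 floral organ identity genes, 9 were lower and 1 higher (corrected 7 and 2). AG, the gene of stamen and carpel identity, had 3.297, 1.39 and 0 in the double mutant, against 136, 119 and 137 in Col-0 (log2 change -5.92 ± 0.40 (SE), adjusted p = 2.3e-10). SEP3, a cofactor of the organ identity genes, had 12.2, 15.6 and 18.7 in the double mutant, against 249.9, 282 and 263 in Col-0 (log2 change -4.03 ± 0.33 (SE), adjusted p = 3.47e-09). STK, of ovule identity, was listed at 0 in the double mutant, against 5.52, 35.4 and 30.9 in Col-0. Tapetum and pollen wall genes were lower in 13 of 18 and higher in 2 (corrected 12 and 3). GRP17, a pollen coat gene, had 0.825, 0 and 0 in the double mutant, against 366, 196 and 267 in Col-0 (log2 change -7.78 ± 0.54 (SE), adjusted p = 2.72e-10). EXL4, a pollen coat lipase gene, was listed at 0 in the double mutant, against 173, 276 and 198 in Col-0. LAP6 and TKPR1, of sporopollenin synthesis in young anthers, were higher, by 2.67 ± 0.37 and 2.04 ± 0.26, although LAP6 was not called with the length slope as a covariate (1.18, adjusted p = 0.0902). Summed values of the tapetum and pollen wall list were 894, 684 and 1193 in the double mutant, against 1480.1, 1326 and 1166 in Col-0. Whether the plants differed in how many flowers, or flowers of which stage, they carried is not given, and its part in these values was not tested.

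Flowering-time genes did not move as one. Flowering promoters and SPL genes counted 5 higher and 10 lower of 16 (corrected 4 and 7). SPL9, a factor of the adult phase, had 65.0, 92.8 and 84.2 in the double mutant, against 638, 771 and 793 in Col-0 (log2 change -3.18 ± 0.22 (SE), adjusted p = 2.9e-10). The meristem identity genes FUL and AP1 changed by -2.79 ± 0.28 and -2.5 ± 0.31 (corrected -1.71 and -1.56), while LFY and CO were higher, by 2.09 ± 0.47 and 3.76 ± 0.50. Floral repressors counted 5 higher and 6 lower of 14 (corrected 6 and 7; 7 and 6 with equal column totals). SNZ, an AP2-like repressor gene, had 14.4, 19.0 and 33.7 in the double mutant, against 426, 421 and 646 in Col-0 (log2 change -4.47 ± 0.38 (SE), adjusted p = 4.41e-09). MAF5, of the FLC family, had 195, 236 and 259.6 in the double mutant, against 47.1, 67.9 and 58.7 in Col-0 (log2 change 1.98 ± 0.31 (SE), adjusted p = 1.4e-05; corrected 3.32).

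Growth genes differed by kind. Expansin and XTH genes, whose products loosen cell walls, were lower in 21 of 26 and higher in 1 (corrected 17 and 2). EXPB1 had 2.66, 23.1 and 8.28 in the double mutant, against 529.7, 612 and 533 in Col-0 (log2 change -5.90 ± 0.52 (SE), adjusted p = 8.57e-09). EXPA11 had 305, 368 and 323 in the double mutant, against 2783, 3831 and 4294 in Col-0 (log2 change -3.43 ± 0.32 (SE), adjusted p = 1.83e-08). Both genes were lower in each double mutant library than in any of Col-0. GRF and other leaf growth genes were higher in 8 of 13 and lower in 1 (corrected 6 and 1). GRF5, a growth-regulating factor gene, had 754, 733 and 847 in the double mutant, against 86.6, 114 and 98.6 in Col-0 (log2 change 2.96 ± 0.35 (SE), adjusted p = 5.19e-07), and GRF4 was lower, by -1.69 ± 0.31. Mitotic cell cycle genes counted 2 higher and 8 lower of 18 (corrected 6 and 7, and 6 and 7 with equal column totals); CYCA1;1 changed by -1.67 ± 0.24 (corrected -0.99) and CDC20.1 by 2.35 ± 0.31. Shoot meristem and boundary genes counted 1 higher and 6 lower of 15 (corrected 3 and 4, and 3 and 2 with equal column totals). In the cell cycle and meristem lists the share of members called as deposited was below the 64.6% over all genes, and after the correction or with equal column totals the higher and lower counts were nearly even. STM, which keeps meristem cells undifferentiated, had 288, 354 and 295 in the double mutant, against 749.7, 982 and 1018 in Col-0 (log2 change -1.54 ± 0.25 (SE), adjusted p = 1.96e-05). With the length slope as a covariate neither STM (-0.15, adjusted p = 0.65) nor GRF4 (-0.31, adjusted p = 0.598) was called.

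Genes of the plant surface and its pigments were low. Wax and lipid transfer genes were lower in 17 of 21 and higher in 0 (corrected 17 and 2). LTP4, a lipid transfer protein gene, had 5.66, 0 and 4.76 in the double mutant, against 2592, 2903 and 3398 in Col-0 (log2 change -9.77 ± 0.52 (SE), adjusted p = 5.77e-12). WSD1, the wax ester synthase gene of stems, had 1.33, 6.69 and 4.65 in the double mutant, against 877, 829 and 877 in Col-0 (log2 change -7.53 ± 0.47 (SE), adjusted p = 5.84e-11). LTP3 changed by -7.08 ± 0.38. Together with MAH1, which led the falls over all genes, they stood lower in every double mutant library than in any Col-0 library. Anthocyanin and flavonol genes were lower in 10 of 14 and higher in 0 (corrected 8 and 0). FLS1, the flavonol synthase gene, had 37.8, 63.1 and 44.7 in the double mutant, against 737, 672 and 590.5 in Col-0 (log2 change -3.78 ± 0.28 (SE), adjusted p = 6.8e-10). CHS, which opens the pathway, had 85.0, 61.7 and 70.2 in the double mutant, against 941, 719 and 413 in Col-0 (log2 change -3.17 ± 0.36 (SE), adjusted p = 2.51e-07). Trichome patterning genes counted 2 higher and 5 lower of 11 (corrected 2 and 2), a share called close to the 64.6% over all genes. The inhibitor gene TRY changed by -4.25 ± 0.66 (corrected -2.58), and with the length slope as a covariate it was not called (-1.79, adjusted p = 0.175).

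Root and seed markers were read beside the label of the material, seedlings, and they neither check nor contradict it. Flower genes were present in Col-0, where AG averaged 131 and GRP17 276. Of 10 root markers, 7 passed the filter on low values, 3 of them higher and 1 lower (corrected 1 and 2), and the root hair and root tip genes RHD6 and PLT1 were listed at 0 in all 6 libraries. Summed root marker values were 1337, 1351 and 1102 in the double mutant, against 1236, 1146 and 1108 in Col-0, most of it from SHR and SCR, which leaves also express. The higher ones were SCR and the phosphate and nitrate transporter genes PHT1;1 and NRT2.1, and the lower one was SHR. PHT1;1 had 31.2, 33.7 and 19.7 in the double mutant, against 6.35, 3.503 and 2.29 in Col-0 (log2 change 2.58 ± 0.48 (SE), adjusted p = 9.85e-05; corrected 2.18). NRT2.1 had 91.4, 91.7 and 27.1 in the double mutant, against 28.8, 16.4 and 33.1 in Col-0 (log2 change 1.25 ± 0.53 (SE), adjusted p = 0.0429; corrected 0.75, adjusted p = 0.195). The call of NRT2.1 also ended without Col-0 library 1 (1.35, adjusted p = 0.0578) or 2 (0.96, adjusted p = 0.163) and without double mutant library 1 (0.97, adjusted p = 0.165) or 2 (0.97, adjusted p = 0.165), and with the length slope as a covariate neither gene was called (1.0, adjusted p = 0.358, for PHT1;1, and 0.50, adjusted p = 0.705, for NRT2.1). The part of root tissue in the other results was not tested. Of 8 seed markers, 2 passed the filter with 0 higher and 0 lower, and the storage protein genes CRA1, CRU3 and SESA3 were listed at 0 throughout.

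The double mutant was next set against the single mutant ada2b-c, which shares the ada2b-c mutation but lacks spc. Limma called 2137 of 23290 genes, or 9.18%, with 1370 higher (5.88%) and 767 lower (3.29%) in the double mutant. The pooled fit takes its spread from all 7 genotypes; a fit on the libraries of only the 2 genotypes called 7363. The residual SD on the log2 scale was 0.161 in the double mutant and 0.115 in ada2b-c, against 0.279 in Col-0. The pooled count was 1234 without double mutant library 1 and 1280 without library 2, and 1348, 1364 and 1390 without ada2b-c library 1, 2 or 3. Both comparisons with Col-0 share its libraries, so each is given by its own values.

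Auxin response and expansin genes were mostly higher in the double mutant than in ada2b-c. Of 18 auxin response genes, 15 were higher and 0 lower, with a median change of 1.52, beside 0.00 over all genes. IAA29 had 171, 226 and 271 in the double mutant and 23.9, 11.4 and 16.8 in ada2b-c (log2 change 3.64 ± 0.31 (SE), adjusted p = 2.34e-07), with 1920.1, 2648 and 3116 in Col-0. Among expansin and XTH genes, 15 of 26 were higher and 1 lower. EXPA11 had 305, 368 and 323 in the double mutant and 67.1, 74.5 and 122 in ada2b-c (log2 change 1.95 ± 0.32 (SE), adjusted p = 0.000422), with 2783, 3831 and 4294 in Col-0. The double mutant thus lay between ada2b-c and Col-0 for both genes. So did ada2b-cada2a, where IAA29 averaged 187 ± 27.9 and EXPA11 347 ± 19.5 (SD, n = 3 each). These levels were therefore not particular to ada2b-cspc. Auxin synthesis and transport genes counted 8 higher and 0 lower, and YUC8 differed by 2.54 ± 0.42. Antenna genes counted 6 higher and 0 lower, and LHCB2.3 had 269, 253 and 214 in the double mutant, against 109.9, 143 and 149 in ada2b-c (log2 change 0.87 ± 0.16 (SE), adjusted p = 0.00107), both far below Col-0. Anthocyanin, floral organ and gibberellin genes counted 6, 6 and 6 higher, with 0, 0 and 0 lower.

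A few surface lipid genes were lower still in the double mutant. In the wax and lipid transfer list 4 members were lower than in ada2b-c and 0 higher. LTP4 had 5.66, 0 and 4.76 in the double mutant, against 67.4, 62.9 and 85.9 in ada2b-c (log2 change -4.42 ± 0.52 (SE), adjusted p = 1.16e-05). MAH1 had 0, 2.96 and 3.2 in the double mutant, against 62.3, 37.1 and 46.4 in ada2b-c (log2 change -4.25 ± 0.41 (SE), adjusted p = 1.08e-06), and LTP3 differed by -3.05 ± 0.38. For LTP4 and MAH1 the ada2b-c values thus lay above those of the double mutant and below those of Col-0. WSD1 was the fourth (-1.58 ± 0.47), but a fit on the 2 genotypes alone ended its call (-1.58, adjusted p = 0.166), as did leaving out double mutant library 1 (-1.08, adjusted p = 0.232) or 3 (-1.72, adjusted p = 0.0562) or ada2b-c library 2 (-1.46, adjusted p = 0.128) or 3 (-1.10, adjusted p = 0.222). Means in ada2b-cada2a were 14.5 ± 7.93 for LTP4 and 79.98 ± 13.5 for LTP3 (SD, n = 3 each), against 72.1 and 237 in ada2b-c. A level of LTP4 and LTP3 below ada2b-c was therefore not particular to ada2b-cspc. Every ada2b-cspc library was nevertheless lower in both genes than any of ada2b-cada2a. MAH1 averaged 39.7 ± 11.96 in ada2b-cada2a (SD, n = 3), where its values overlapped those of ada2b-c. SAG12 had 457, 383 and 291 in the double mutant and 4.38, 0 and 5.82 in ada2b-c (log2 change 6.81 ± 0.56 (SE), adjusted p = 1.55e-07), with 6.35, 1.29 and 4.42 in Col-0. Salicylic acid defence genes counted 2 higher and 1 lower against ada2b-c, so most of that list showed no called difference between the 2 mutants. PR2 had 16478, 15678 and 13482 in the double mutant, against 6361, 6311 and 6214 in ada2b-c (log2 change 1.27 ± 0.22 (SE), adjusted p = 0.000637).

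**Figure D4:**
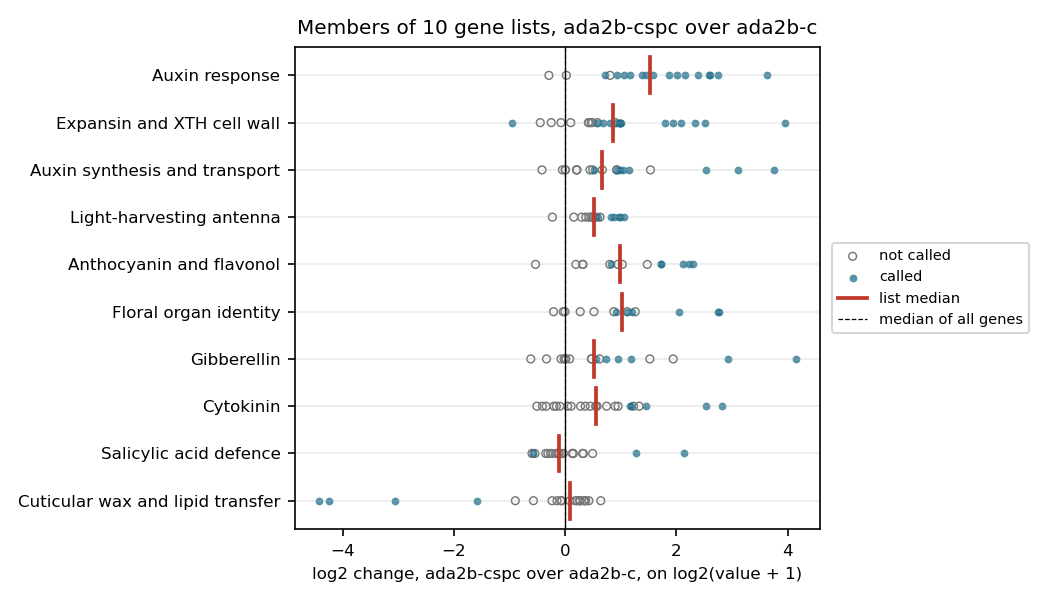
Log2 change of ada2b-cspc over ada2b-c (horizontal axis) for the tested members of 10 gene lists (rows); filled points were called at an adjusted p under 0.05, open points were not, and ticks are list medians. The auxin response median lies at 1.52 and the expansin and XTH median at 0.86, while LTP4, MAH1 and LTP3 are the lowest points of the wax row.

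Most of the genes that separated the double mutant from ada2b-c by the largest changes lay outside the gene lists, SAG12 being an exception. AT2G01422, a noncoding RNA gene, had 6179.7, 5904 and 4792 in the double mutant and 12.4, 7.69 and 6.24 in ada2b-c (log2 change 9.21 ± 0.61 (SE), adjusted p = 9.26e-09), with 185, 244 and 314 in Col-0. PGAZAT had 369, 344 and 359.7 in the double mutant, against 1.31, 1.49 and 3.31 in ada2b-c (log2 change 6.94 ± 0.88 (SE), adjusted p = 3.01e-05). The other large rises were SAG12, AT1G10300 and AT1G10980. AT1G10300 averaged 163 in the double mutant and 141 in ada2b-cada2a. AT1G10980 averaged 1.56 in ada2b-c and from 93.1 in Col-0 to 197 in spc in the other genotypes. As deposited it was not called against Col-0 by limma (log2 change 0.58 ± 0.38 (SE), adjusted p = 0.186). AT3G01345, which encodes an uncharacterized protein, had 3.88, 1.14 and 6.42 in the double mutant and 1867, 1653 and 1751 in ada2b-c (log2 change -8.69 ± 0.55 (SE), adjusted p = 4.4e-09), with 24.4, 8.30 and 12.3 in Col-0. HCS2, a holocarboxylase synthetase gene, was listed at 0 in the double mutant, against 139, 167 and 209 in ada2b-c and 51.3, 40.5 and 59.7 in Col-0. AT2G40960 had 1.42, 2.83 and 3.97 in the double mutant and 642, 481 and 505 in ada2b-c (log2 change -7.23 ± 0.54 (SE), adjusted p = 4.13e-08), with 316, 265 and 271 in Col-0. In AT3G01345 ada2b-c stood far above every other genotype, the next highest mean being 35.3 in spc. In HCS2 and AT2G40960 the double mutant stood below both, but spc was low as well, with 2.24, 0.093 and 0.064 for HCS2 and 2.58, 9.59 and 13.2 for AT2G40960. The gcn5 and ada2b-cada2a libraries also lay below ada2b-c and Col-0 in these 2 genes. The remaining large falls were AT1G19750 and AT5G38396. There too ada2b-c was the highest genotype, with means of 62.8 and 57.5, against 10.7 and 4.42 in Col-0.

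Against spc, limma called 18054 genes, or 77.5%, with 8946 higher (38.4%) and 9108 lower (39.1%), but with the length slope as a covariate 5943 (25.5%). After the correction 8783 genes were higher (37.7%) and 7389 lower (31.7%). The spc libraries carried an opposite trend with length, at -0.75, -1.49 and -1.11 per doubling. All 3 libraries of spc listed HAC2 and AT5G16900 at 0, as did those of Col-0. LTP4 had 5.66, 0 and 4.76 in the double mutant and 9925, 18093 and 14142 in spc (log2 change -11.98 ± 0.52 (SE), adjusted p = 3.66e-13), with 2592, 2903 and 3398 in Col-0. DDF1, an AP2-type gene related to the CBFs, had 5.03, 0 and 0.659 in the double mutant and 1654, 3466 and 2019.5 in spc (log2 change -10.04 ± 0.59 (SE), adjusted p = 2.36e-11), with 311, 363 and 447 in Col-0. DIN2 had 2048, 2245 and 2008 in the double mutant and 0.074, 3.12 and 3.91 in spc (log2 change 9.55 ± 0.47 (SE), adjusted p = 1.96e-12), and was listed at 0 in Col-0. The other large differences were rises of AT2G38390 and AT4G38780 and falls of MAH1, GRP19 and AT1G66850. The antenna list was lower in 17 of 17 genes (corrected 17), and salicylic acid defence was higher in 17 of 24 and lower in 3 (corrected 20 and 1). With the length slope as a covariate neither PR2 (0.69, adjusted p = 0.0927) nor ALD1 (-0.20, adjusted p = 0.914) was called against spc.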

How the data were processed

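RNA-seq was measured in 21 libraries of 7 genotypes, 3 each. Reads were demultiplexed with bcl2fastq, aligned with HISAT2 to TAIR10 and handled with edgeR, per the submitters' processing notes; which counting program, annotation or strand setting was used is not given in the sources used here. The values the authors deposited are an adjusted read signal per gene, not whole counts, so their depth is unknown and no count model was used. Values under 0.001 were set to 0.

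Genes with a mean of at least 1 were tested with limma 3.58.1 (R 4.3.3) on log2(value + 1), which understates changes of low genes, with 1 mean per genotype over all 21 libraries, 14 residual degrees of freedom and Benjamini-Hochberg adjustment over 23290 genes, called at an adjusted p under 0.05. The correction subtracted, library by library, splines (5 degrees of freedom) in transcript length and GC content. A simulation was also run, with independent noise and with or without a length trend in the double mutant only. The real libraries carried trends in every genotype, so it does not measure the errors of these calls. Lengths, symbols and sequences came from RefSeq TAIR10.1.

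The members and lists were chosen with earlier results of these data known. Named genes were GCN5, ADA2A and ADA2B; per list up to 4 called genes of largest change in the direction of its median and up to 2 against it; and the 10 largest rises and falls against Col-0, or 5 against each single mutant, with the same sign after the correction and no overlap of libraries. Not every gene that the list rule took is named. Those left out ran both with and against the direction, the latter in the expansin, trichome, branching and DNA methylation lists, among others. COR15A was named after its values and sequence were seen. Alternatives covered the low-value filter, pseudocount, column totals, samples fitted, replicate block, length, minimum change and each library left out. Figures were drawn with matplotlib 3.10.9.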

Additional observations from a re-analysis of the deposited data

Results flagged for a closer look

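Over all genes, 42 were called in both the double mutant and ada2b-c against Col-0 with opposite signs and also differed between the mutants by limma's adjusted p; both comparisons share the Col-0 libraries, and the difference itself was tested between the mutants. Of these, 4 are among the genes named. AT2G01422, a noncoding RNA gene, differed by 9.21 ± 0.61 (log2, SE; adjusted p = 9.26e-09), being higher than Col-0 in the double mutant (4.52) and lower in ada2b-c (-4.69). AT3G01345 differed by -8.69 ± 0.55 (adjusted p = 4.4e-09), with -1.78 against Col-0 in the double mutant and 6.91 in ada2b-c. Its call against Col-0 ended without Col-0 library 1 (-1.38, adjusted p = 0.0508) and without double mutant library 2 (-1.28, adjusted p = 0.0616), with the length slope as a covariate (-1.10, adjusted p = 0.408) and with a pseudocount of 0.1 (-2.1, adjusted p = 0.0567). AT1G19750 differed by -5.98 ± 0.78 (adjusted p = 4.22e-05), with -3.42 in the double mutant and 2.56 in ada2b-c. AT5G38396 differed by -5.33 ± 0.72 (adjusted p = 5.98e-05), with -1.83 in the double mutant and 3.5 in ada2b-c. The call of AT5G38396 against Col-0 ended after the length and GC correction (-1.29, adjusted p = 0.131), without Col-0 library 1 (-1.81, adjusted p = 0.0635) or 3 (-1.55, adjusted p = 0.111) and without double mutant library 1 (-1.56, adjusted p = 0.107). That of AT1G19750 ended with the length slope as a covariate (-2.35, adjusted p = 0.208).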

How the results depend on the processing

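The number of genes called against Col-0, 15051, stayed within 1.5 times under every alternative but 1: with the length slope as a covariate 9959 genes were called, 4109 of them higher. Leaving out 1 library gave 13507 to 14573. Against ada2b-c, 2137 genes were called; the count was 7363 in a fit on these genotypes only, 3599 after the length and GC correction, 4998 with the slope covariate, 1423 with a change of at least 1 on the log2 scale required, and 1234 to 1639 without 1 library. Against spc the slope covariate gave 5943, against 18054. The replicate numbers did not pair the libraries: the residual correlations of same-numbered ada2b-cspc and Col-0 libraries were 0.026, -0.037 and -0.05. The replicate block called 15411 genes against Col-0 and 2454 against ada2b-c, and with the correction 14526 and 3988. Over all settings, 24 values of named genes turned direction and 67 lost their call. After the correction, with and without the replicate block, changes against Col-0 were -0.05 for GCN5, -0.17 for AT4G36080, 0.13 for AT3G27100, 0.08 for SGF29A, -0.20 for GWD1, -0.40 for TKL1 and -1.07 for GI. With the slope covariate they were 0.79 for AT3G27100, -0.86 for GI, -0.58 for TKL1, -0.16 for JAZ1, -0.01 for OPR3, -0.49 for PRR5 and -0.54 for RD29B, and against spc -0.20 for ALD1. ADA2B, not called, was at 0.29 with equal column totals and between -0.42 and 0.14 without 1 library. The cause was not tested. List counts stayed within 1.5 times in 1168 of 1344 cases; with 1 library left out, those that moved more were counts of at most 4 genes. Depth cannot be read from these values, genotype and the trend with transcript length cannot be told apart, and low genes rest on the pseudocount.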
